A study of Mus musculus with 51 samples.

Results

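The olfactory receptor (OR) genes described here are the chromosome 19 receptors: every gene of the deposited tables whose number falls from *Olfr1417* to *Olfr1505*, apart from *Olfr1431*, *Olfr1437* and *Olfr1440*. Of 1117 OR genes in the tables, 60 carry a number in that range and 57 are members, which is 5.10% of the genes. All 57 lie on mouse chromosome 19, between positions 11826803 and 13921866 of GRCm38, 31 on the plus and 26 on the minus strand. They were chosen by name, with no threshold on a measured value, but earlier results of these data were known when the choice was made.

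The libraries were made by pS6-IP-Seq, in which an antibody against phosphorylated ribosomal protein S6 pulls down ribosomes of recently active cells and the attached mRNA is sequenced. The tissue was whole olfactory mucosa of C57BL/6J mice at about 3 weeks of age, littermates of mixed sex, and each mouse spent 1 hr with an odorant or with the diluent alone. The 51 libraries form 10 odor groups and 7 control groups of 3 mice each. The odor groups received 0.01%, 1% or 100% SBT (2-*sec*-butyl-4,5-dihydrothiazole, a male mouse urine compound), 100 μM or 10 mM MTMT ((methylthio)methanethiol, another male urine compound), 100% (*E*)-β-farnesene, 1% 2,5-DMP (2,5-dimethylpyrazine), 77% DHB (dehydro-*exo*-brevicomin), 100 mM CPD (the musk cyclopentadecanone) or 1% β-caryophyllene. Control mice received the diluent, water for most odorants and ethanol for MTMT and CPD. The labels do not say which diluent each control mouse received. One set of 3 control mice served for 100 μM MTMT, 2,5-DMP and (*E*)-β-farnesene, and another set for 1% and 100% SBT, so comparisons within each set are not independent.

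An OR is a G protein-coupled receptor on the cilia of an olfactory sensory neuron (OSN). Each mature OSN expresses a single OR gene, usually from a single allele, so an OR transcript in pS6-bound RNA stands for the neurons that carry that receptor. OR genes lie in clusters, and neighbours in a cluster are often recent duplicates with closely related coding sequences. Odor activity in an OSN leads to phosphorylation of S6, so ORs of responding neurons take a larger share of the captured OR reads. A larger share can come from more capture per neuron, more OR mRNA per neuron or more neurons, and in these bulk libraries the 3 cannot be told apart. The tables hold OR genes only, so markers of OSNs or of other cells were not analysed here.

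The members differ widely in coding sequence: over 1596 pairs, the identity of the aligned coding bases ran from 58.4% to 97.5%, with a median of 64.8%. Close pairs are shown because in some of them both genes passed the test after the highest dose of SBT and in others 1 did, and because reads of 50 bases can fall on both. *Olfr1477* and *Olfr1484* are shown first because their coding sequences, each of 945 bases, differ at 33 positions, while only *Olfr1477* passed the test after 100% SBT. The stretches are coding bases 235 to 384 (GRCm38, plus strand, chr19:13502579-13502728 and chr19:13585540-13585689), read in a single coding exon, and capitals mark the 9 positions in this stretch that differ.
Olfr1477: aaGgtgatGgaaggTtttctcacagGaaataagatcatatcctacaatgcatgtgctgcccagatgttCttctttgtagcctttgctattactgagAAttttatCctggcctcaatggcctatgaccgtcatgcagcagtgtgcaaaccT
Olfr1484: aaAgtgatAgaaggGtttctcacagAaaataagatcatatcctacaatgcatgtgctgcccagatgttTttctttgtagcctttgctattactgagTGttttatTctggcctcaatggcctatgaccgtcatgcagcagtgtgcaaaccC

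*Olfr1471* and *Olfr1474* differ at 27 of 942 coding positions, and both passed the test. They are shown because 22.1% of the 50-base stretches of *Olfr1474* transcripts also occur in *Olfr1471*, so reads can be divided between them. Coding bases 91 to 240 lie at chr19:13445104-13445253 and chr19:13471062-13471211 on the plus strand, with the 7 differing positions in capitals.
Olfr1471: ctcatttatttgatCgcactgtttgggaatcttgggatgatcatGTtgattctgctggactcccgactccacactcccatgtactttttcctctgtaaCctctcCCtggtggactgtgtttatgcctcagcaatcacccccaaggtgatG
Olfr1474: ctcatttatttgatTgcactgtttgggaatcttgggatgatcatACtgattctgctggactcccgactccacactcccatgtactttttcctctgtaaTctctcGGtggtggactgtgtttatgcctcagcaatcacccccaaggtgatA

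*Olfr1454*, *Olfr1459* and *Olfr1458* stand for a more distant set, with 87.3% to 88.9% identity between them. *Olfr1454* and *Olfr1459* rose after 100% SBT, and *Olfr1458* had a lower share there than in each control. Coding bases 449 to 598 lie at chr19:13063861-13064010 on the plus strand and at chr19:13146060-13146209 and chr19:13102705-13102854 on the minus strand, written 5′ to 3′ along each gene. Capitals mark the 39 positions at which the 3 sequences are not all the same.
Olfr1454: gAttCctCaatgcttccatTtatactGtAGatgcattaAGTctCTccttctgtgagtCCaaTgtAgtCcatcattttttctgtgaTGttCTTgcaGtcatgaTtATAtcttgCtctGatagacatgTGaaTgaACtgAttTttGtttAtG
Olfr1459: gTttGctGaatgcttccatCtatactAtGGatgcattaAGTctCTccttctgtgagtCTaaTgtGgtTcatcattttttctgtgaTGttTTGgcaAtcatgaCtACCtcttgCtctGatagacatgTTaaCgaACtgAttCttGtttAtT
Olfr1458: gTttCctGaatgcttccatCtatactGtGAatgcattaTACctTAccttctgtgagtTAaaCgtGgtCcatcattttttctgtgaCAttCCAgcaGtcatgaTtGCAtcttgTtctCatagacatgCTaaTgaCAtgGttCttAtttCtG

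After 100% SBT, 11 of the 53 members tested rose and 0 fell, by the quasi-likelihood test of edgeR, with p-values adjusted (Benjamini-Hochberg) over all 1050 ORs tested and called under 0.05. These were *Olfr1449*, *Olfr1451*, *Olfr1454*, *Olfr1457*, *Olfr1459*, *Olfr1461*, *Olfr1463*, *Olfr1466*, *Olfr1471*, *Olfr1474* and *Olfr1477*, all of them ORs with log2 fold changes from 1.68 to 4.63. They are 20.8% of the members tested, where 10.7% of all ORs tested rose (112 genes) and 0.762% fell (8 genes). At an unadjusted p under 0.05, 16 members were higher and 1 was lower, together 32.1% of the members, where 21.1% of all ORs tested (222 genes) had such a p. Scaling by library totals in place of TMM factors moved the median of all ORs by -0.39 on the log2 scale. The median log2 fold change was 0.42 over the members and -0.07 over all ORs tested. In 14 members (26.4%), each of the 3 exposed mice had a larger share of OR reads than each control mouse, against 13.3% of all ORs tested. The other 4 members had fewer than 10 reads over the 6 libraries and were not tested.

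**Figure D1:**
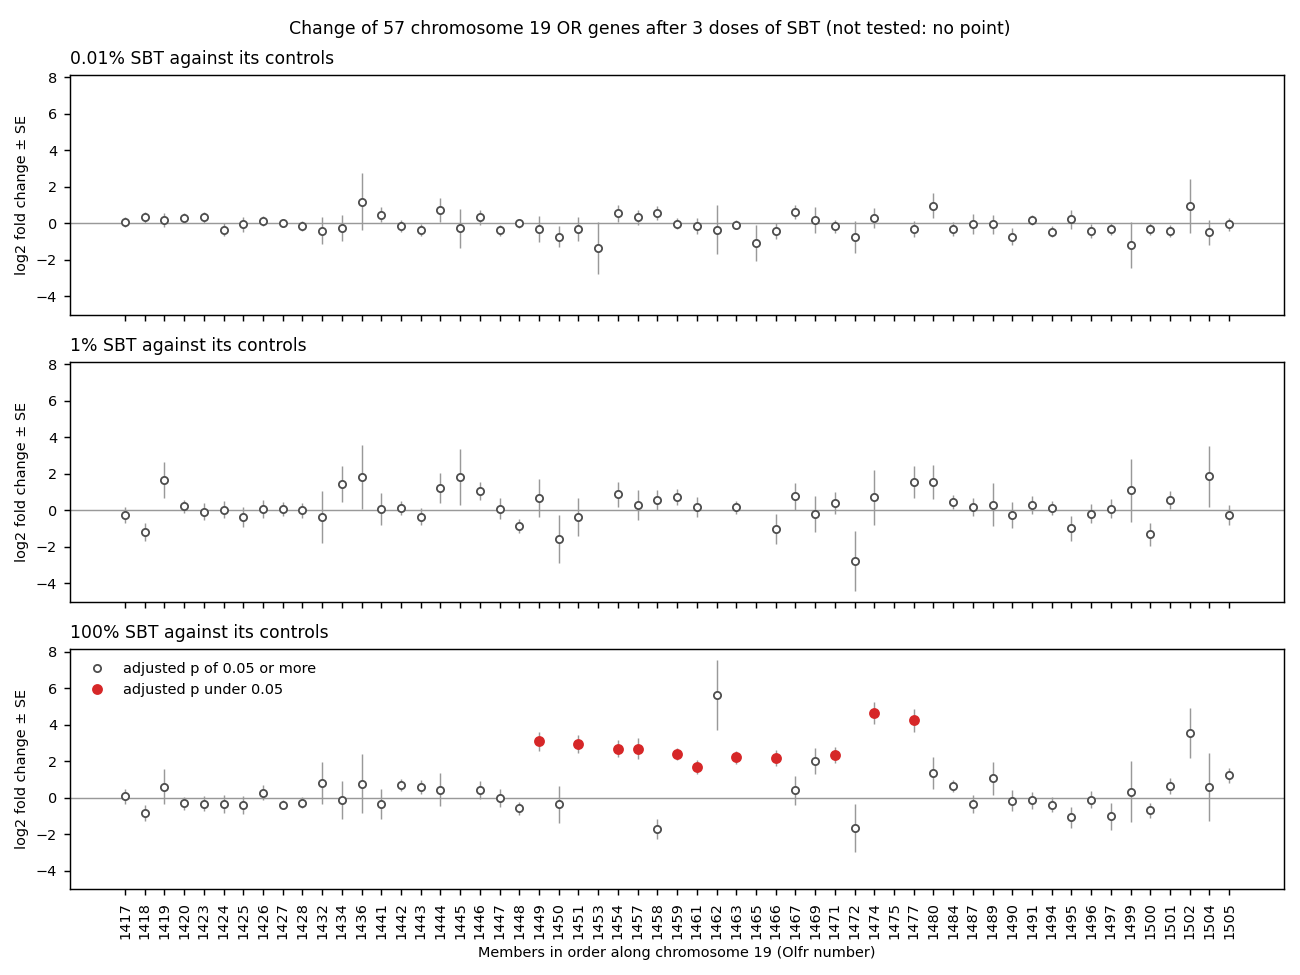
Log2 fold change with its standard error for each tested member, in order along chromosome 19, for 0.01%, 1% and 100% SBT against their controls (n = 3 mice a group); filled red points passed an adjusted p of 0.05. The 11 red points, at 1.68 to 4.63, occur at 100% SBT and lie between Olfr1449 and Olfr1477.

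The 11 genes did not spread along the cluster. They fall within 20 consecutive members, from *Olfr1449* to *Olfr1477*, in 575.4 kb (12930840 to 13506192). In that stretch 17 members were tested, with a median log2 fold change of 2.35, and 11 rose. Of the 36 tested members outside it, 0 rose by the quasi-likelihood test and the median was -0.07, with 20 of them before *Olfr1449* and 16 after *Olfr1477*. Among the latter, *Olfr1502* and *Olfr1505* were above every control in each exposed mouse. Their log2 fold changes were 3.55 and 1.22 (quasi-likelihood adjusted p = 0.141 and 0.0957), and the likelihood ratio test called both (adjusted p = 0.0327 and 0.0441). These genes are the closest pair of members in coding sequence (97.5% identity). Of the 50-base stretches of *Olfr1502*, 41.8% occur in *Olfr1505*, so some reads could be assigned to either. Their changes may therefore not be separate. *Olfr1502* was also low without odor, with a mean control share of 0.00371% and 0 reads in 7 of the 21 control libraries. The ends of the stretch were set by the genes that passed, so its counts are a description with no test. Where members more than 100 kb apart are put in separate blocks, the members form 6 blocks. Genes left out by the rule lie in some of the gaps. *Olfr1431* lies between *Olfr1428* and *Olfr1432*, and *Olfr1437* and *Olfr1440* lie between *Olfr1436* and *Olfr1441*. The blocks thus describe the members only and not the layout of all ORs there. The last block, from *Olfr1444* to *Olfr1505*, holds 41 members, 37 of them tested and all 11 that rose. In the other 5 blocks 0 of 16 tested members passed.

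The first genes of the stretch had few reads in the controls. *Olfr1449* took 0.0159%, 0.0070% and 0.0147% of OR reads in the 3 control mice and 0.0943%, 0.0526% and 0.0938% after 100% SBT. It rose by 3.09 in log2 (SE, the standard error, 0.53; edgeR adjusted p = 0.00127), and each exposed mouse lay above every control. *Olfr1451* took 0.00909%, 0.0332% and 0.0147% in the controls and 0.108%, 0.136% and 0.103% after exposure. Its log2 change was 2.92 (SE 0.49, adjusted p = 0.00117). No 50-base stretch of its transcripts occurs in another annotated gene, so its reads are not shared with a copy. *Olfr1454* took 0.0227%, 0.0280% and 0.0403% in the controls and 0.190%, 0.159% and 0.0799% in the exposed mice, a log2 change of 2.68 (SE 0.46, adjusted p = 0.00133). Replicate 3 was the lowest of the exposed mice for this gene and lay below the highest 1% SBT mouse (0.0869%). *Olfr1457* took 0.0409%, 0.0210% and 0.00366% in the controls and 0.103%, 0.166% and 0.0747% after exposure, a log2 change of 2.69 (SE 0.59, adjusted p = 0.00734). Among these genes its controls were the most spread, and they still did not reach the exposed mice.

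*Olfr1459*, in the middle of the stretch, had controls close together, at 0.0772%, 0.0700% and 0.0696%. After 100% SBT it took 0.354%, 0.250% and 0.271%, and rose by 2.40 (SE 0.33, adjusted p = 0.000342). Its long transcript shares 19.9% of its 50-base stretches with other annotated genes, the most with *G430049J08Rik*, which is not an OR of the tables, so part of its reads could be assigned to either. *Olfr1461* took 0.0432%, 0.0472% and 0.0366% in the controls and 0.0907%, 0.0966% and 0.129% after exposure. Its log2 fold change of 1.68 was the lowest of the 11 (SE 0.39, adjusted p = 0.00984), and without exposed replicate 3 it passed the threshold no longer (edgeR adjusted p = 0.0514). *Olfr1463* was the most abundant of the 11. It took 0.220%, 0.157% and 0.256% in the controls and 0.796%, 0.381% and 1.07% after exposure, a log2 change of 2.22 (SE 0.37, adjusted p = 0.00114). The exposed mice varied the most for this gene, with replicate 2 nearest to the controls. *Olfr1466*, with 89.1% of its coding bases in common with *Olfr1463*, took 0.0432%, 0.0192% and 0.0330% in the controls and 0.136%, 0.104% and 0.0869% after exposure. It rose by 2.19 (SE 0.45, adjusted p = 0.00496), almost the same size as *Olfr1463*.

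Among the 11 genes that rose, the 2 largest changes were at the far end of the stretch, in *Olfr1474* and *Olfr1477*. *Olfr1471* took 0.0227%, 0.0717% and 0.0476% in the controls and 0.127%, 0.257% and 0.172% after 100% SBT, and rose by 2.35 (SE 0.45, adjusted p = 0.0029). Its close copy *Olfr1474* had 2 reads in each control mouse, or 0.00454%, 0.0035% and 0.00733% of OR reads. In the exposed mice it had 65, 146 and 34 reads, or 0.0796%, 0.140% and 0.0591%. Its log2 fold change of 4.63 (SE 0.61, adjusted p = 0.000257) rests on 6 control reads in all. *Olfr1477* had 0, 15 and 7 reads in the controls and 189, 306 and 122 after exposure. Its share went from at most 0.0262% to between 0.212% and 0.293%, a log2 change of 4.24 (SE 0.63, adjusted p = 0.000522). For both genes these controls had the lowest mean of the 7 control groups, which enlarges the fold changes. That mean was 0.00512% for *Olfr1474*, beside 0.0127% over the 7 groups, and 0.0173% for *Olfr1477*, beside 0.0468%. Of the 50-base stretches of *Olfr1477*, 19.2% occur in other annotated genes, the most in *Olfr1478-ps1*, a pseudogene not among the members.

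**Figure D2:**
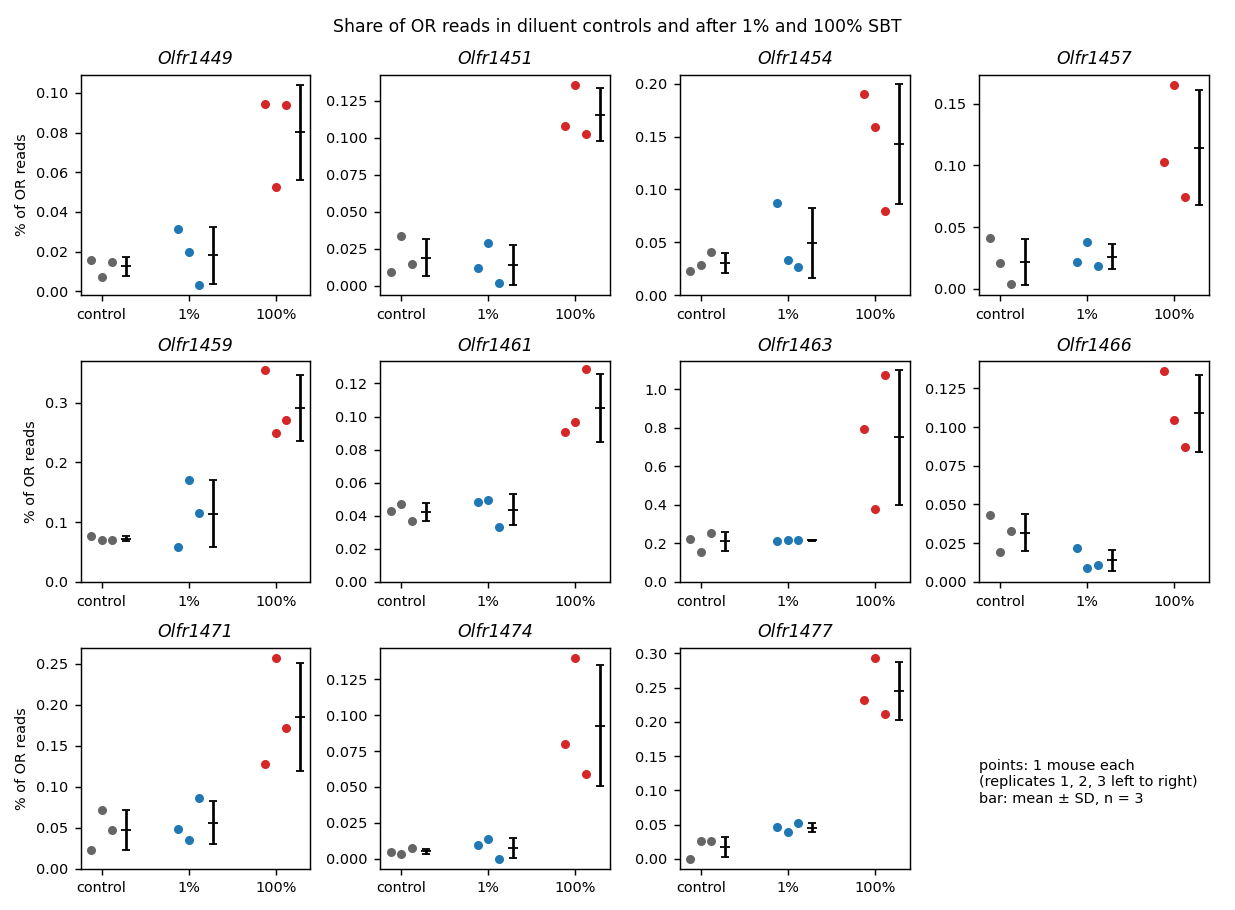
Share of OR reads (%) of the 11 members that rose after 100% SBT, in each control mouse and each mouse exposed to 1% or 100% SBT, with mean and SD (n = 3) and a separate vertical scale for each gene. In every panel the 3 mice exposed to 100% SBT lie above the 3 controls. The 1% mice overlap the controls for most genes, lie above all 3 for Olfr1477, and reach above a 100% mouse for Olfr1454 (0.0869% against 0.0799%). For Olfr1477 these controls had the lowest mean of the 7 control groups (0.0173%, beside 0.0468% over the 7).

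Together the 11 genes took 0.500%, 0.485% and 0.549% of OR reads in the control mice and 2.31%, 2.03% and 2.35% after 100% SBT. In the 48 libraries of the other groups their sum ran from 0.436% to 1.14%, with a median of 0.566%. For 9 of the 11 the lowest mouse exposed to 100% SBT was above all 48 other libraries. The exceptions were *Olfr1454*, which 1 library exceeded (1% SBT replicate 1, 0.0869%), and *Olfr1463*, which 12 libraries reached or exceeded, up to 0.842% in CPD control replicate 2. Among members with at least 100 reads in a library, the largest single shares relative to the median of the other 50 libraries were in exposed replicate 2, at 10.9 times for *Olfr1474*, 10.65 times for *Olfr1451* and 7.74 times for *Olfr1471*. The genes were chosen for their values after 100% SBT, so these comparisons carry no test.

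Both doses were run with the same controls, and the difference between them was tested directly. Against 1% SBT, 12 of 54 members tested were higher after 100% SBT and 1 was lower, where 8.13% of all ORs tested were higher (85 of 1046) and 0.956% lower (10 genes). All 11 genes above were among the 12, with log2 differences from 1.503 for *Olfr1461* to 3.85 for *Olfr1474*. The same 100% SBT libraries enter both comparisons, so this overlap is not independent support. In 10 of the 11, each mouse given 100% lay above each mouse given 1%, the exception being *Olfr1454*. The 12th gene, *Olfr1505*, lies outside the stretch, at the end of the cluster. It took 0.0435%, 0.0452% and 0.0361% after 1% SBT and 0.0858%, 0.123% and 0.0730% after 100%, a log2 difference of 1.43 (SE 0.43, adjusted p = 0.0499). That p lay at the threshold, and leaving out any of 5 of the 6 libraries ended the call. Leaving out 100% SBT replicate 1 lowered the count from 13 to 8.

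The shares after 1% SBT were as follows. *Olfr1449* took 0.0314%, 0.0196% and 0.00314%, *Olfr1451* 0.0121%, 0.0286% and 0.00157%, and *Olfr1457* 0.0217%, 0.0377% and 0.0188%. *Olfr1454* took 0.0869%, 0.0332% and 0.0267%, with replicate 1 above all 3 controls. *Olfr1459* took 0.0579%, 0.170% and 0.115%, with replicates 2 and 3 above the controls and below every 100% mouse. *Olfr1461* took 0.0483%, 0.0497% and 0.0330%, and *Olfr1463* took 0.215%, 0.220% and 0.215%, within the range of its controls. *Olfr1466* took 0.0217%, 0.00904% and 0.0110%, and *Olfr1471* took 0.0483%, 0.0347% and 0.0863%. *Olfr1474* had 4, 9 and 0 reads.

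*Olfr1458* was the member that was lower after 100% than after 1% SBT, by -2.29 in log2 (SE 0.41, adjusted p = 0.00178). It took 0.249%, 0.155% and 0.290% after 1% SBT and 0.0527%, 0.0316% and 0.0365% after 100%. Its controls were spread, at 0.338%, 0.0682% and 0.106%, and against them the log2 fold change was -1.71 with an adjusted p of 0.0721. Each mouse given 100% lay below each control and each mouse given 1%. The comparison with the controls depended on the fit. It passed with replicate number as a block in edgeR (-1.42, adjusted p = 0.0383) and by DESeq2 (-1.74, adjusted p = 0.0223). It also passed by the likelihood ratio test (-1.71, adjusted p = 0.0250) and with library totals in edgeR (-2.09, adjusted p = 0.0271). With the title prefix as a block in edgeR it did not (-1.66, adjusted p = 0.125). Without control replicate 1 the edgeR value was -0.66 (adjusted p = 0.506). The gene lies inside the stretch of genes that rose, between *Olfr1457* and *Olfr1459*.

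At 1% SBT 0 of 52 members tested passed, where 0.863% of all ORs tested did (9 of 1043), and 3 members (5.77%) had an unadjusted p under 0.05, near the 5.08% of all ORs tested (53 genes). *Olfr1418* had 0.0290% to 0.0392% after 1% SBT and 0.0787% to 0.0931% in the controls, a log2 change of -1.20 with an adjusted p of 0.873. *Olfr1448* had 0.0893% to 0.130% against 0.150% to 0.291% (-0.83, adjusted p = 0.984), and *Olfr1446* had 0.0691% to 0.0990% against 0.0332% to 0.0586% (log2 fold change 1.05, adjusted p = 0.984). Among the 11 genes that rose at 100%, the log2 fold changes at 1% ran from -1.04 to 1.55, with 9 above 0. *Olfr1477* had the largest, 0.0459%, 0.0392% and 0.0518% against at most 0.0262% in the controls, with an adjusted p of 0.994. These shares after 1% SBT lay within the range of its means in the 7 control groups (0.0173% to 0.0693%, mean 0.0468%). The controls used here had the lowest of those means. At 0.01% SBT, 0 of 56 members passed, against 0.466% of all ORs tested (5 of 1072), and 0 had an unadjusted p under 0.05. There the 11 genes ran from -0.45 to 0.52, with 3 above 0. The lowest p among higher members belonged to *Olfr1467* (log2 fold change 0.59) and *Olfr1458* (0.56), and among lower members to *Olfr1490* (-0.76), each with an adjusted p of 0.999. DESeq2 also called 0 members at either dose, with 2 at an unadjusted p under 0.05 for 1% and 0 for 0.01%.

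Close relatives inside and outside the stretch can be set beside each other. At 85% identity or more there were 39 pairs of members, and in 29 of them both genes were tested at 100% SBT. Both rose in 5 pairs, 1 of the pair rose in 11, and in 13 neither passed. The pairs in which both rose were *Olfr1471* with *Olfr1474* (97.1% identity), *Olfr1463* with *Olfr1466* (89.1%), *Olfr1454* with *Olfr1459* (88.9%), *Olfr1461* with *Olfr1466* (88.2%) and *Olfr1461* with *Olfr1463* (88.0%). The members share genes across these pairs, so the pairs are not independent. The difference between the genes of a pair was not tested.

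The closest pair with 1 gene passing was *Olfr1477* and *Olfr1484*, whose sequences are given above. *Olfr1484* took 0.102%, 0.157% and 0.106% of OR reads in the controls and 0.138%, 0.147% and 0.149% after 100% SBT. Its log2 change was 0.63 (SE 0.33, adjusted p = 0.315), beside 4.24 for *Olfr1477*. The groups overlapped for *Olfr1484* and did not for *Olfr1477*. About 7.07% of the 50-base stretches of *Olfr1477* and 7.08% of those of *Olfr1484* occur in the other, so some reads could be assigned to either. *Olfr1487*, with 94.7% of its coding bases in common with *Olfr1477*, had a log2 change of -0.35, and *Olfr1480*, with 93.3%, had 1.34 (adjusted p = 0.761 and 0.453). Likewise *Olfr1449* rose by 3.09 and *Olfr1450*, its nearest relative at 87.3%, had -0.36 (adjusted p = 0.903). *Olfr1450* had 0, 17 and 7 control reads and 9, 11 and 6 after 100% SBT, so its controls were the more spread.

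The other members of the stretch had low counts or groups that overlapped. *Olfr1469*, next to *Olfr1467*, took 0.00227%, 0.0332% and 0.0330% in the controls and 0.103%, 0.0727% and 0.0278% after 100% SBT (log2 fold change 2.02, adjusted p = 0.0934). Exposed replicate 3 fell within the controls, and DESeq2 gave an adjusted p of 0.0443. *Olfr1462* had 0 reads in each control, which together held 128482 OR reads, and 8, 10 and 4 reads after 100% SBT. Its edgeR log2 fold change of 5.63 (SE 1.91, adjusted p = 0.0934) did not pass. With 3 reads over the control group as a floor (0.00233%), its pooled share after exposure (0.00903%) was 3.87 times that floor. This floor covers counting error only and not the spread among mice. Means of this gene in the 7 control groups ran from 0% to 0.00582%. *Olfr1467* and *Olfr1472* had log2 fold changes of 0.41 and -1.67 with overlapping groups. *Olfr1453*, *Olfr1465* and *Olfr1475* had at most 5 reads in any of these 9 libraries.

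Promoters of the members were read as the 250 bases before the first annotated base of each gene (GENCODE M21 positions, GRCm38 sequence). For 43 of the 53 members that RefSeq lists, its start is the first coding base, so RefSeq windows were not used. The GENCODE start is also the first coding base for *Olfr1436*, *Olfr1453*, *Olfr1475* and *Olfr1502*, so their windows may not be promoters. *Olfr1436* is among the members counted below with TAATTA. The letters TAATTA, a core that homeodomain factors bind and that reads the same on both strands, occur in the windows of 15 of 57 members (26.3%). They occur in 22.8% of 1103 OR genes of the tables and in 4.99% of 21938 protein-coding genes. Of the 11 genes that rose, 5 hold them: *Olfr1454*, *Olfr1463*, *Olfr1466*, *Olfr1471* and *Olfr1474*. The core of the Olf1/Ebf motif, TCCC and GGGA with any 2 bases between them, searched on both strands, occurs in 1 member (1.75%), *Olfr1448*, in 2.27% of the OR genes and in 0.893% of protein-coding genes. A match is a description of the letters and not a bound site. The windows of the 2 genes with the largest rise among the 11 are shown. *Olfr1474* (chr19:13469315-13469564, plus strand) has TAATTA in capitals, and *Olfr1477* (chr19:13500296-13500545, plus strand) has no match.
Olfr1474: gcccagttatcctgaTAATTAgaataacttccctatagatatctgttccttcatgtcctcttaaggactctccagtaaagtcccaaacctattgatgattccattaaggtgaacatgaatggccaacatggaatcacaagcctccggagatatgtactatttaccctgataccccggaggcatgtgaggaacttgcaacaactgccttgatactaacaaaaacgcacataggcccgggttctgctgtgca
Olfr1477: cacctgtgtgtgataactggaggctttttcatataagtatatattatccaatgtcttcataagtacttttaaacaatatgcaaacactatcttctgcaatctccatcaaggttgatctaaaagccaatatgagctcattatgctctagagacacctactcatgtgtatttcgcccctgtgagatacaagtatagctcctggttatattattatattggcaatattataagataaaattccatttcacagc

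The remaining odorants moved no member past the threshold. For each, the share of all ORs tested that passed in either direction stands beside it. After 100 μM MTMT 0 of 55 members passed (0.281% of 1068 ORs), after (*E*)-β-farnesene 0 of 56 (1.77% of 1071), after 2,5-DMP 0 of 56 (0.841% of 1070) and after DHB 0 of 56 (0.564% of 1064). After 10 mM MTMT, CPD and β-caryophyllene 0 of 53, 54 and 52 members passed, and the share of all ORs was 0% in each. At an unadjusted p under 0.05 by edgeR there were 0 members after 100 μM MTMT, 1 each after (*E*)-β-farnesene, 2,5-DMP and CPD, 2 after 10 mM MTMT and 3 each after DHB and β-caryophyllene. Among all ORs tested the share at that p was 4.12% after 100 μM MTMT, 6.44% after (*E*)-β-farnesene, 4.39% after 2,5-DMP, 3.81% after CPD, 6.55% after 10 mM MTMT, 3.57% after DHB and 4.87% after β-caryophyllene. The share of members was lower in the first 5 of these (0% to 3.77%), and was 5.36% after DHB and 5.77% after β-caryophyllene. DESeq2 called 0 members in each of these 7 comparisons.

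**Figure D3:**
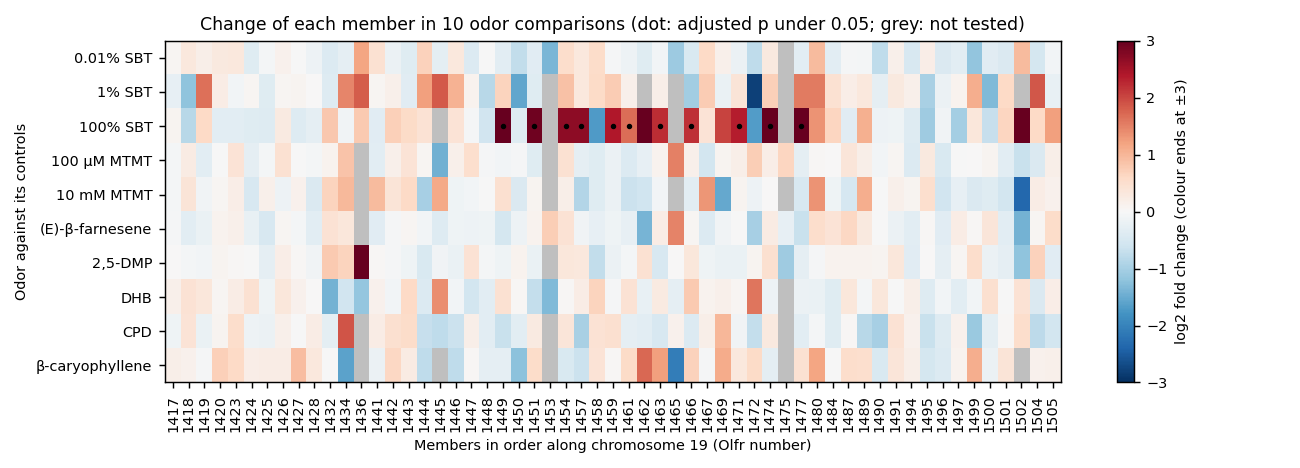
Log2 fold change of the 57 members (columns, in order along chromosome 19) in the 10 odor comparisons (rows, n = 3 odor and 3 control mice), in colours that end at ±3, with grey for genes not tested and a dot where the adjusted p was under 0.05. Dots occur for 11 genes in the row of 100% SBT and in no other row.

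The genes nearest to the threshold in these comparisons were as follows. After 2,5-DMP, *Olfr1436* had 4, 5 and 5 reads against 0 in each of the 3 controls (edgeR adjusted p = 0.518), among the lowest counts in the set. It had 3, 2 and 3 reads after (*E*)-β-farnesene, which shared those controls. Of its 50-base stretches, 40.8% occur in other annotated genes, as do 6.47% of those of *Olfr1434*. Both share the most with *Olfr1437*, which is not a member, so some of their reads could be assigned to either. *Olfr1434* was next for 2,5-DMP, at 0.0149%, 0.0209% and 0.0269% against 0.0105% to 0.0144% in the controls (log2 fold change 0.66, adjusted p = 0.991). It was also among the higher members after 100 μM MTMT, at 0.0219%, 0.0268% and 0.0229% against the same controls (0.85, adjusted p = 0.955), with *Olfr1426* beside it at 0.46. The lower members with the lowest p were *Olfr1463* after 2,5-DMP (-0.47) and *Olfr1494* after 100 μM MTMT (-0.42). After (*E*)-β-farnesene, *Olfr1477* took 0.0346%, 0.0427% and 0.0484%, below all 3 controls at 0.0736%, 0.0728% and 0.0616%, a log2 change of -0.68 (adjusted p = 0.503). *Olfr1487* (0.61) and *Olfr1505* (0.55) were the higher members with the lowest p there. None of these differences passed the test.

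After 10 mM MTMT, *Olfr1467* took 0.0482%, 0.0188% and 0.0220% against 0.00969%, 0.0212% and 0.00994% (log2 fold change 1.34, adjusted p = 0.595), and *Olfr1441* had 0.95 and *Olfr1457* -0.89. The groups of *Olfr1467* and *Olfr1441* overlapped. After DHB, *Olfr1458* took 0.239%, 0.166% and 0.252% against 0.177%, 0.123% and 0.145% (log2 fold change 0.67, adjusted p = 0.994). *Olfr1472* had 6, 16 and 28 reads against 1, 6 and 8 (1.60, adjusted p = 0.994), and *Olfr1447* had -0.55. After CPD, *Olfr1490* took 0.0297%, 0.0164% and 0.0176% against 0.0548%, 0.0396% and 0.0406%, lower in each exposed mouse, a log2 change of -0.99 (adjusted p = 0.993). *Olfr1434* (1.88) and *Olfr1423* (0.52) were the higher members with the lowest p after CPD. For *Olfr1434* the shares were 0.0874%, 0.00548% and 0.0313% against 0.0189%, 0.00158% and 0.0130%, so that replicate 2 was low in both groups.

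The β-caryophyllene group held 1 library that stood apart for the members. In replicate 2, the members took 6.77% of OR reads, above the highest of the other 50 libraries (5.13%), against 4.39% and 4.83% in replicates 1 and 3. *Olfr1427* alone took 2.28% there (2280 reads, 95% Wilson interval 2.19% to 2.38%), against at most 1.165% in the other 50 libraries. *Olfr1458* took 0.824% (95% Wilson interval 0.770% to 0.882%) against at most 0.559%. Without these 2 genes the members' sum in that library was 3.66%. *Olfr1463* took 0.227%, 0.614% and 0.268% after β-caryophyllene, above its controls at 0.168%, 0.177% and 0.166%, a log2 change of 1.22 (edgeR adjusted p = 0.904). Without replicate 2 its value was 0.59. *Olfr1427* had 0.93, and 0.39 without replicate 2, and *Olfr1434* had -1.595, both with the same adjusted p as *Olfr1463* in the full fit. *Olfr1434* had 5, 0 and 13 reads after β-caryophyllene and 23, 22 and 5 in the controls, with overlapping groups, and leaving out 1 library moved its value between -2.65 (without exposed replicate 3) and -0.97 (without exposed replicate 2). The intervals cover counting error only, since PCR copies were not removed by molecular identifiers.

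Summed over all 57 genes, the members took 3.08% to 6.77% of the OR reads of a library, with a median of 4.31%. In the 21 control libraries the sum ran from 3.65% to 4.96%. After 100% SBT it was 5.13%, 5.04% and 5.07% against 4.58%, 4.48% and 4.0035% in the controls. The mean difference was 0.725 percentage points, and each exposed mouse lay above each control. The 46 members outside the 11 took 4.08%, 3.998% and 3.45% in the controls and 2.82%, 3.01% and 2.72% after 100% SBT. The sum over all 57 combined a larger share of the 11 with a smaller share of the 46. Shares sum to a fixed total, so a larger share of some ORs lowers that of the rest. After β-caryophyllene the sum was also above the controls in each mouse (4.39%, 6.77% and 4.83% against 4.31%, 4.19% and 3.96%). With replicate 2 left out its mean was 4.61% in place of 5.33%. In the other 8 odor comparisons the groups overlapped. After 10 mM MTMT the sum was 4.70%, 3.48% and 3.08% against 4.75%, 4.81% and 4.17%. In that group *Olfr1437*, which is not a member, took 0.511%, 0.0740% and 6.29% of OR reads, against at most 0.0814% in its controls, so the library with the lowest sum held the largest share of *Olfr1437*.

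**Figure D4:**
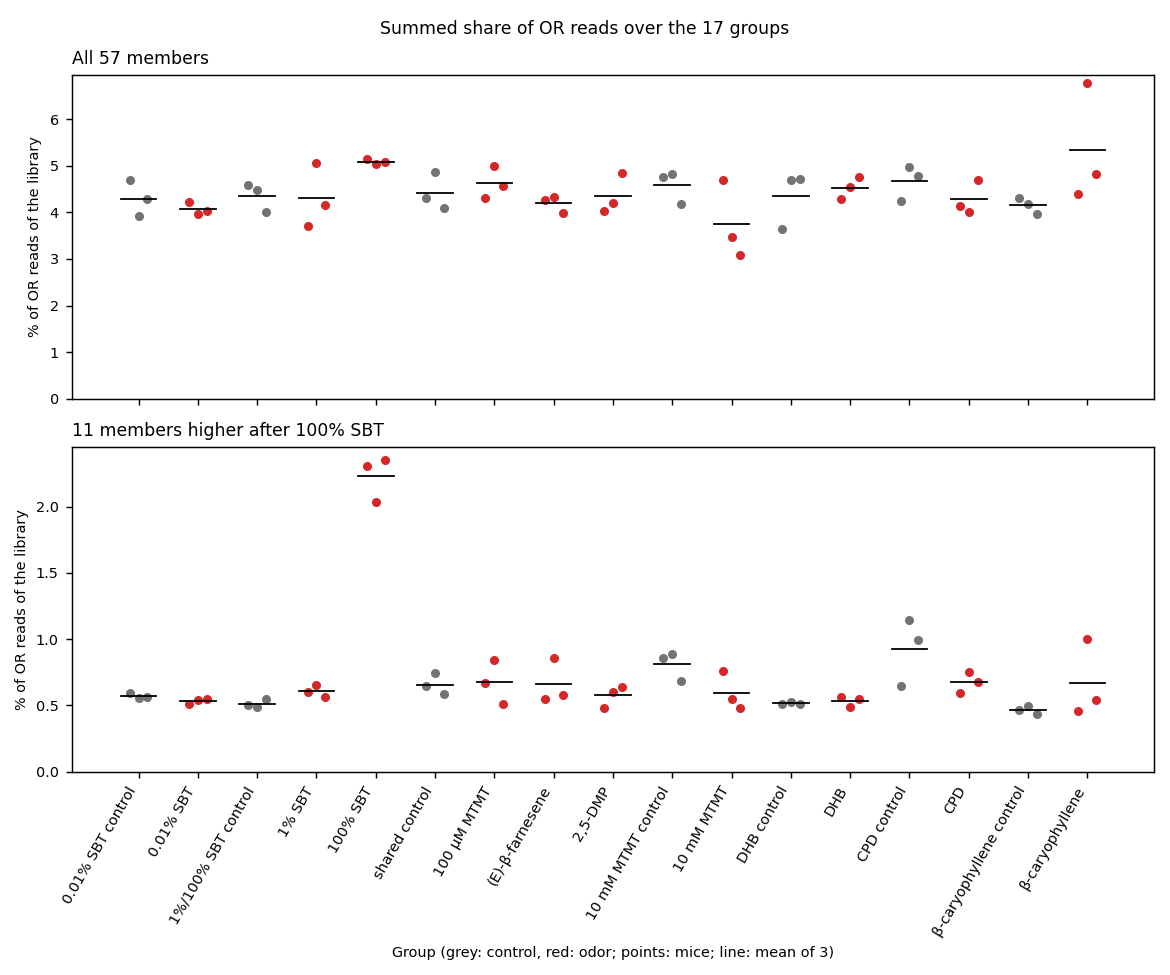
Share of OR reads (%) taken by all 57 members (top) and by the 11 that rose after 100% SBT (bottom), with a point per mouse and a line at the mean of 3, for 7 control groups (grey) and 10 odor groups (red). The 57 stay between 3.08% and 6.77%, while the 11 lie at 2.03% to 2.35% after 100% SBT and at or below 1.14% in the other 48 libraries.

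In diluent-exposed mice the members' levels covered a 623.1-fold range. Levels are mean shares over the 7 control groups, each weighted equally, with the SD over those group means (n = 7). *Olfr1427* was the highest at 0.861% ± 0.058, followed by *Olfr1463* at 0.324% ± 0.168, *Olfr1443* at 0.286% ± 0.059 and *Olfr1420* at 0.245% ± 0.029. Then came *Olfr1428* at 0.190% ± 0.021, *Olfr1448* at 0.183% ± 0.018, *Olfr1417* at 0.177% ± 0.029 and *Olfr1458* at 0.174% ± 0.069. These 8 genes made up 55.4% of the members' reads. The lowest group mean of *Olfr1427* (0.787%) was above the highest of any other member (0.635%, *Olfr1463*). From *Olfr1463* to *Olfr1458* each gene's range of group means overlapped that of the next, so their order is not settled beyond that spread. *Olfr1463* varied the most among them, from 0.171% to 0.635% between control groups, with no odor applied.

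The lowest members were *Olfr1453* (0.00138% ± 0.00127), *Olfr1475* (0.00145% ± 0.0012), *Olfr1436* (0.00165% ± 0.00262) and *Olfr1445* (0.0028% ± 0.00135). They had 0 reads in 13, 13, 14 and 5 of the 21 control libraries. Per kilobase of annotated exon, on the scale of reads per 100000 OR reads, *Olfr1427* was again highest at 257.5, then *Olfr1463* at 139.9, *Olfr1458* at 90.8 and *Olfr1428* at 89.1. *Olfr1462* was lowest at 0.994. The 11 genes that rose after 100% SBT ranked from 2nd to 44th of 57 by share, with a median level of 0.0291% against 0.0442% for the other members. *Olfr1463* was the one at rank 2, and the other 10 ranked from 18th to 44th.

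**Figure D5:**
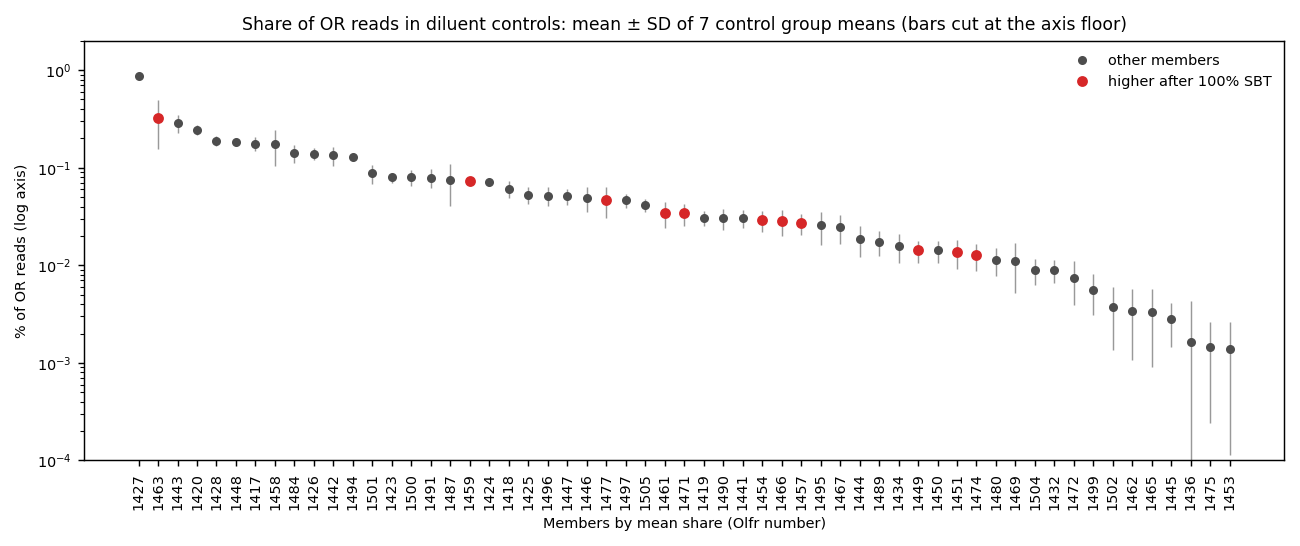
Share of OR reads (%, log axis) of each member in diluent-exposed mice, ordered from highest to lowest, as the mean and SD of the 7 control group means; red marks the 11 genes that rose after 100% SBT. The shares run from 0.861% for Olfr1427 to 0.00138% for Olfr1453, and the red points lie at rank 2 (Olfr1463) and from rank 18 to rank 44.

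The 51 libraries held 27301 to 160001 OR reads each, with a median of 93870. The SBT experiment with the 2 higher doses was the shallowest in its controls, with 44027, 57154 and 27301 reads, beside 41426, 66366 and 63712 after 1% and 81626, 104517 and 57551 after 100%. By counting error alone, a member with 0 reads in all 3 controls could therefore still have a share of up to 0.00233%. Over 51 pairs of replicates the chi-square per degree of freedom was 5.22 to 28.02, so no pair agreed within sampling noise and each library counted as a sample. The p-values of the main fits set each difference against the spread among these mice, with no pairing term.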

How the data were processed

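Whole olfactory mucosa of mice exposed to an odorant or to diluent was profiled by pS6-IP-Seq, with single-end reads of 50 or 75 bases. For the deposited files, the authors mapped reads to GRCm38 (STAR) and let RSEM estimate expected counts per gene (GENCODE M25), and the deposited tables give these expected counts as whole numbers for 1117 OR genes. The library kit does not mark strand, and molecular identifiers were not used. The tables also hold fold changes and p-values of the authors' own comparisons, which were not used. In the 2-heptanone table, 6 per-sample columns matched no sample and were not used. Each library held 27301 to 160001 OR reads, and a share is a gene's percent of these.

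Each comparison was fitted on its 6 libraries with edgeR 4.0.16 (R 4.3.3): TMM factors, a minimum of 10 reads summed over those libraries, the quasi-likelihood test, and Benjamini-Hochberg adjustment over all ORs tested. Standard errors were derived from the log2 value and the F statistic. The fit was tested on simulated data. DESeq2 1.42.0, the likelihood ratio test, library totals, a minimum of 1 read, blocks and leaving out each library were alternatives. Deviations of same-numbered mice correlated above 0.1 in every pair for 1% and 100% SBT, their contrast, CPD and β-caryophyllene. The main fits held no pairing term there or elsewhere, and the replicate number entered only as a block in an alternative fit. The labels do not say what a number marks.

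The members and lists were chosen with earlier results of these data known. Genes were named by rule: members past the threshold, in each odor comparison the 2 higher and the 1 lower with the lowest p, the 8 highest and 4 lowest in controls, the 3 with the largest single-library share relative to the median of the other libraries (at least 100 reads in that library), and as context the 3 genes left out. Close relatives and uncalled genes of the stretch were added after their values were seen. Coding sequences and the 250 bases before each gene were read from GRCm38 with GENCODE M21 positions. Coding sequences were aligned in pairs with Biopython 1.88, and stretches of 50 bases were matched to all annotated transcripts.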

Additional observations from a re-analysis of the deposited data

Results flagged for a closer look

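For 13 members the response to SBT differed between the doses, by edgeR's test of 100% against 1% SBT over the same libraries (adjusted p under 0.05). The log2 difference was 2.41 for *Olfr1449*, 3.27 for *Olfr1451*, 1.80 for *Olfr1454*, 2.39 for *Olfr1457*, 1.62 for *Olfr1459* and 1.503 for *Olfr1461*. It was 2.02 for *Olfr1463*, 3.245 for *Olfr1466*, 1.95 for *Olfr1471*, 3.85 for *Olfr1474*, 2.67 for *Olfr1477* and 1.43 for *Olfr1505*. *Olfr1458* was the 1 member with the opposite sign, at -2.29. The shares of each mouse at both doses are given above.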

How the results depend on the processing

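At 100% SBT the count of 11 members, taken in either direction, stayed between 10 and 12 when a library was left out. It was 13 by DESeq2, 16 by the likelihood ratio test, 12 with library totals and 11 with a minimum of 1 read. DESeq2, the likelihood ratio test and library totals each counted *Olfr1458*, which was lower. Leaving out exposed replicate 3 ended the call of *Olfr1461*, and the other 10 genes passed under all 12 alternatives. For 100% against 1% SBT the count of 13 ran from 8 to 13 when a library was left out, with 8 without 100% SBT replicate 1. Of the 12 alternatives, 7 ended the call of *Olfr1505*, 6 that of *Olfr1461*, 5 that of *Olfr1454*, 4 that of *Olfr1449* and 1 each that of *Olfr1459* and *Olfr1471* (without 100% SBT replicates 1 and 2). For 2,5-DMP the likelihood ratio test called 1 member, *Olfr1436*. In the other 8 comparisons 0 members passed under every alternative run.

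With the replicate number as a block, 12 members passed at 100% SBT, *Olfr1458* (lower) being added, and 14 passed for 100% against 1% SBT, *Olfr1469* being added. The pairing changed no other call of a member count. The title prefix as a block gave 11 and 14.

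The difference in summed share at 100% SBT was 1.075 points without *Olfr1427* and 2.02 with a TMM-scaled total. At 10 mM MTMT it was 1.67 with *Olfr1431*, *Olfr1437* and *Olfr1440* counted and 0.0539 with a TMM-scaled total, in place of -0.828. At CPD it was 0.363 with those 3 genes counted, in place of -0.383. For 100% against 1% SBT it was 1.59 with a TMM-scaled total, in place of 0.777. Counting or leaving out genes changes the sum by their own shares. At 10 mM MTMT these include *Olfr1437*, at 6.29% in exposed replicate 3 beside 0.511% and 0.0740% in replicates 1 and 2. The cause of the shifts with a TMM-scaled total was not tested.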
